A study of Mus musculus with 31 samples.

Results

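The long autosomal Polycomb domains of mouse lung adenocarcinomas that retained Nkx2-1 were taken as every H3K27me3 island of at least 40000 bp on chromosomes 1 to 19 in the list of these tumors. The rule kept 976 of 48977 autosomal islands (1.99%). They covered 59.4 Mb, which is 13.1% of the bases and 16.5% of the reads in autosomal H3K27me3 islands. An island is a stretch of 200-bp windows that the authors' island caller joined, and it carries a read count. Their width in positive tumors chose these domains, so that width is a description and supports nothing further.

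The series profiled chromatin of lung adenocarcinomas by immunoprecipitation and sequencing (ChIP-seq) in mice of mixed 129/B6 strain, 4 to 7 months old. One group of tumors was Nkx2-1 positive and the other had Nkx2-1 deleted (called positive and deleted tumors here). The labels state no other genotype. Their protocol gives intratracheal infection with adenovirus or lentivirus and intraperitoneal tamoxifen at 56 or 112 micrograms per gram, without saying which mice received which. Lung tumors were pulverised before cross-linking, so other cells of the tumor may be part of each library, and fewer cells with a mark cannot be told apart from less of it per cell. H3K27me3, H3K27ac, H3K4me1 and H3K4me3 were measured in both tumor types, in 1 male and 1 female mouse each. Foxa1/2 binding was measured in 2 male mice with positive tumors and 2 female mice with deleted tumors, and Nkx2-1 binding in 2 male mice with positive tumors. Tumor type and sex therefore cannot be told apart for Foxa1/2.

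Both files of each of the 11 groups were identical merged lists. Each comparison below thus rests on 1 list against 1 list, with no replicate check and no p-value. Intervals are 95% intervals over domains, islands or peaks and cover counting error only. They treat these as independent, which neighbouring domains may not be. The lists hold no total depth. Reads in autosomal H3K27me3 islands came to 17.6 M in positive and 19.3 M in deleted tumors, over 454 and 448 Mb. The domains were defined on mm9, no annotation of that build was used here, and so they are named by position and without genes.

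H3K27me3 is laid down by Polycomb repressive complex 2 and is bound by complexes of the Polycomb repressive complex 1 family. In differentiated tissues it lies over developmental regulators that the lineage keeps silent, and clusters of homeobox genes are the classic case of domains that run over many genes. H3K4me3 marks promoters, H3K4me1 enhancers and H3K27ac active promoters and enhancers. Acetylation and trimethylation cannot occupy the same lysine. Nkx2-1 is the homeodomain factor of the lung lineage, and Foxa1 and Foxa2 are forkhead factors that open chromatin in endodermal epithelia.

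The domains had a median width of 52200 bp, and the widest spanned 401800 bp. In the positive list 429 were narrower than 50 kb, 395 measured 50 to 80 kb and 152 measured 80 kb or more. They were also dense in reads: their median read density was 45.9 reads per kb, from 33.6 to 80.8, and the median domain stood at percentile 92.9 of all autosomal positive islands. Domains per chromosome ranged from 14 on chromosome 18 to 125 on chromosome 9. They came in neighbourhoods, since 490 (50.2%) had another long domain within 100 kb and 292 (29.9%) within 20 kb. Just inside the width limit, 57 domains of 40000 to 40800 bp had a pooled cover of 94.4% in deleted tumors. Just outside it, 64 islands of 39000 to 39800 bp had 95.6%.

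Deleted tumors kept H3K27me3 islands over almost all of this territory. Pooled over the domains, 97.6% of bases lay under deleted-tumor islands, and the median domain was covered to 98.6%. No domain was without H3K27me3 in deleted tumors, against 17.2% of all autosomal positive islands but only 0.0933% of islands of 20 to 40 kb (3 of 3216). Cover reached at least 90% in 914 domains (93.7%, 91.94 to 95.01%), against 49.8% of all autosomal positive islands and 77.9% of islands of 20 to 40 kb. Every base was covered in 328 domains (33.6%), a share close to the 32.1% of all autosomal positive islands. The share differed with width: 89.0% of domains under 50 kb, 96.96% of those of 50 to 80 kb and 98.0% of those of 80 kb or more reached 90% cover.

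The mirrored choice gives the same measures for islands chosen by width in the deleted list. It holds other regions, measured against a list of other mean read density, so it does not isolate what selection does. Of 1217 deleted-tumor islands of at least 40000 bp (78.4 Mb), 87.4% (85.4 to 89.1%) were covered to 90% or more by the positive list, against 47.9% of all autosomal deleted-tumor islands, and the pooled cover was 95.4%. Cover was thus high whichever tumor type chose the domains, and the share was higher, with intervals that do not overlap, for those chosen in positive tumors.

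The 5 widest domains were covered nearly completely. The widest lay at chr15:102570801-102972600. It carried 73.8 reads per kb in positive tumors, and the deleted-tumor islands over it carried 98.9. Deleted-tumor islands covered 99.7% of it in 2 pieces parted by 800 bp. The domain at chr6:52073001-52280200 (207200 bp) was a single island with identical borders in both lists, at 73.3 and 106 reads per kb. Domains at chr4:124102401-124321400, chr19:44669201-44869000 and chr4:123833401-124030200 were each covered to 100% by a single deleted-tumor island.

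Low cover was rare, and the 5 lowest values were all in domains under 50 kb. The lowest cover, 36.6%, was at chr18:15896801-15937200, a domain of 40400 bp with 36.2 reads per kb. There the deleted list held 3 pieces in the middle of the domain, and its borders lay 13400 and 9800 bp inside those of the positive list. The next was chr8:39695001-39736000, at 58.5% cover in 4 pieces. The domains chr16:50839401-50879800, chr3:128766201-128812600 and chr9:28362001-28408000 followed at 68.3%, 68.5% and 73.0%. All 5 had between 35.3 and 37.4 reads per kb in positive tumors, under the domains' median of 45.9. None of them held H3K27ac in either tumor type, as was so for 656 of all 976 domains (67.2%). Those on chromosomes 18, 8 and 3 held H3K4me1 in positive tumors.

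**Figure D1:**
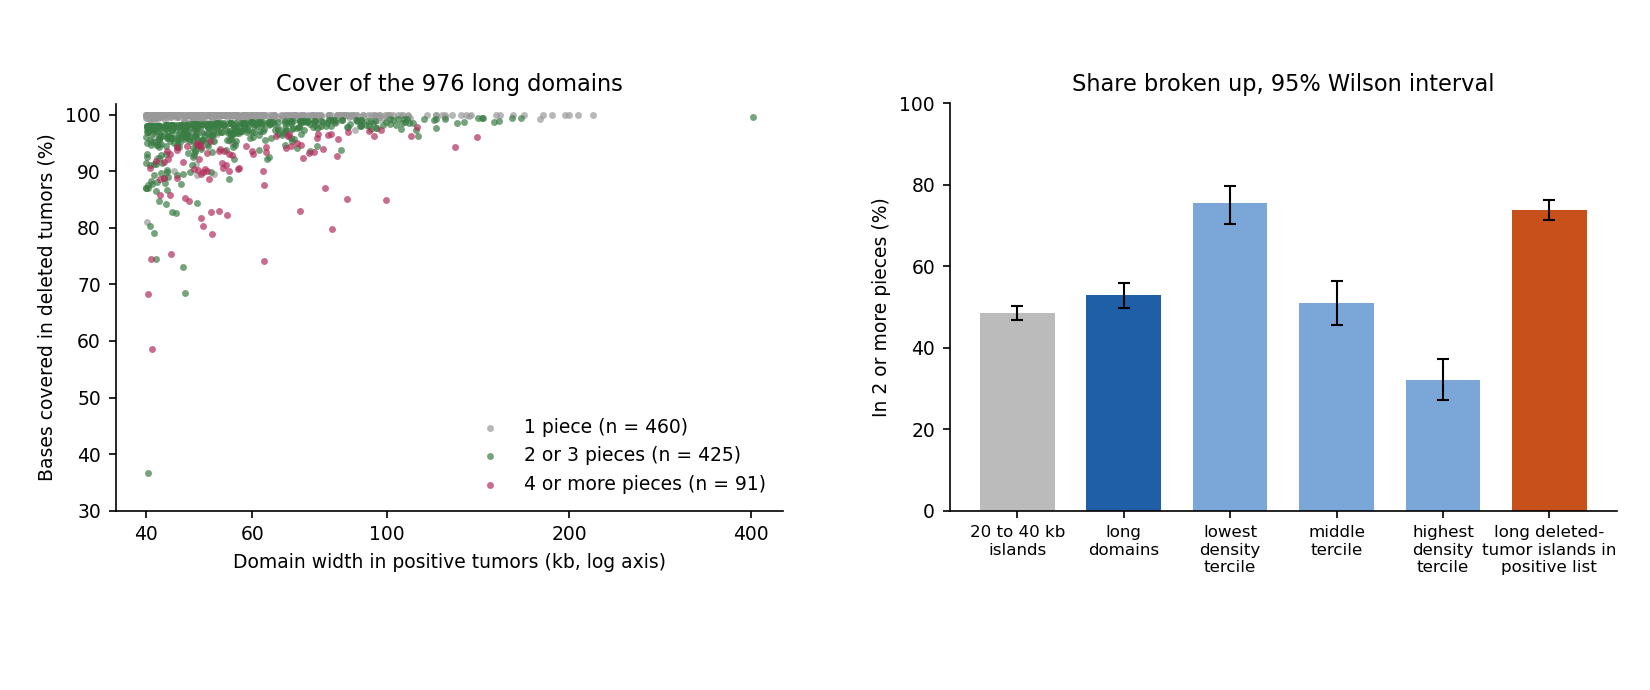
Left, each point is 1 of the 976 domains, with its width in positive tumors (kb, log axis) against the percent of its bases under deleted-tumor H3K27me3 islands, coloured by the number of deleted-tumor pieces. Right, bars give the percent in 2 or more pieces with 95% Wilson intervals: 52.9% of the domains, falling from 75.5% in the lowest tercile of read density to 32.0% in the highest, and 74.0% for long deleted-tumor islands in the positive list.

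High cover did not mean an unbroken domain. A deleted-tumor list with 2 or more islands over the domain was found for 516 domains (52.9%, 49.7 to 56.0%), against 15.7% of all autosomal positive islands and 48.6% of islands of 20 to 40 kb. The other 460 domains met a single deleted-tumor island, 282 met 2, 143 met 3 and 91 met 4 or more. The breaks were small. Of 907 gaps inside domains, 519 (57.2%) measured 800 bp, the narrowest gap the list contains, and 823 (90.7%) measured at most 2000 bp. Only 10 gaps reached 5 kb, the largest 11600 bp. When deleted-tumor islands were joined across gaps of up to 2 kb, 7.17% of the domains remained in pieces.

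Breaks went with read density more than with width. Of domains in the lowest tercile of positive-tumor density (up to 43.6 reads per kb), 75.5% were in pieces, of the middle tercile 51.1% and of the highest tercile (49.0 reads per kb or more) 32.0%. Between the 3 width classes the share stayed between 50.0% and 54.7%. Across the 976 domains, positive-tumor density and the number of deleted-tumor pieces had a Spearman rho of -0.45 (Pearson r -0.39), as a description over domains that share 1 library pool per tumor type. Fragmentation was also larger in the mirrored choice: 74.0% (71.4 to 76.3%) of long deleted-tumor islands were in 2 or more pieces in the positive list, against 15.3% of all autosomal deleted-tumor islands. Breaks in this direction were thus no more frequent than in the other.

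The most broken domain was chr12:54916201-54997400, in 9 pieces with 79.8% cover. The domains chr1:161403601-161503200 and chr3:115300601-115372400 followed with 8 and 7 pieces. All 3 carried between 37.5 and 38.1 reads per kb, low for a domain. Active marks were sparser in the breaks than in the domains. Positive-tumor H3K27ac islands lay over 1.45% of the bases in the gaps, against 3.52% of all domain bases, and deleted-tumor H3K27ac over 0.846%, against 2.45%. H3K4me1 lay over 2.24% and 1.97% of gap bases, against 7.34% and 7.04% of the domains, and H3K4me3 was likewise lower in the gaps.

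Domain borders in deleted tumors were mostly in place or farther out. Over 1952 borders the median shift was 400 bp outward (400 to 600), that is 2 windows. 355 borders (18.2%) were identical to the base, against 12.9% of the borders measured for all autosomal positive islands and 15.1% for islands of 20 to 40 kb. An outward shift of at least 1 kb was found at 882 borders (45.2%), against 39.3% of borders of all autosomal positive islands and 43% for islands of 20 to 40 kb. An inward shift of at least 1 kb was found at 127 (6.51%), against 14.8% and 11.8%. The inward share was lower in wider domains, 8.39% below 50 kb and 3.29% at 80 kb or more. For long deleted-tumor islands measured in the positive list the median shift was 0 bp, with 30.4% outward and 14.9% inward, against 38.1% and 15.7% of borders of all autosomal deleted-tumor islands. How far a border is said to reach hangs on how islands are joined. The median was 11200 bp when deleted-tumor islands within 5 kb of the domain were counted to it. It was 15500 bp when deleted-tumor islands were joined across gaps of up to 2 kb. Both settings left the positive domains unjoined, although 96.3% of them had another positive island in the flanks. They can only move a border outward, so these values do not measure a spread of the mark.

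Outward shifts were mainly junctions with a neighbour. At 716 borders the outermost deleted-tumor island also ran over another positive island, and the median shift there was 14400 bp (12600 to 16400), at least 1 kb outward at all 716, which spanning another island requires. At the other 1236 borders the median shift was 0 bp and 71.5% lay within 600 bp of the positive border. A deleted-tumor island spanning at least 2 positive islands touched 570 domains (58.4%, 55.3 to 61.5%). The reverse, a positive island spanning at least 2 deleted-tumor islands, touched 544 of 1217 long deleted-tumor islands (44.7%, 41.9 to 47.5%). In 121 domains the deleted-tumor island ran on into another long domain. Only 177 domains (18.1%) were both in 1 piece and free of any junction, and 287 were broken at one place and joined at another. Junctions were not counted over all autosomal positive islands, so these values describe the domains and do not show a trait particular to them.

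The largest outward shift showed how a junction arises on these lists. The domain chr19:44869801-44915000 of 45200 bp started 800 bp after the domain chr19:44669201-44869000, the fourth widest. A single deleted-tumor island covered both and reached 214000 bp beyond the border of the former. At chr4:117151601-117219600 the outer island spanned 7 positive islands, with a shift of 172800 bp, and at chr4:46954001-47028400 it spanned 4, with 161800 bp. The largest inward shifts were those of the domains on chromosomes 18 and 8 named for low cover, and 7600 bp at chr10:86664001-86704200.

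**Figure D2:**
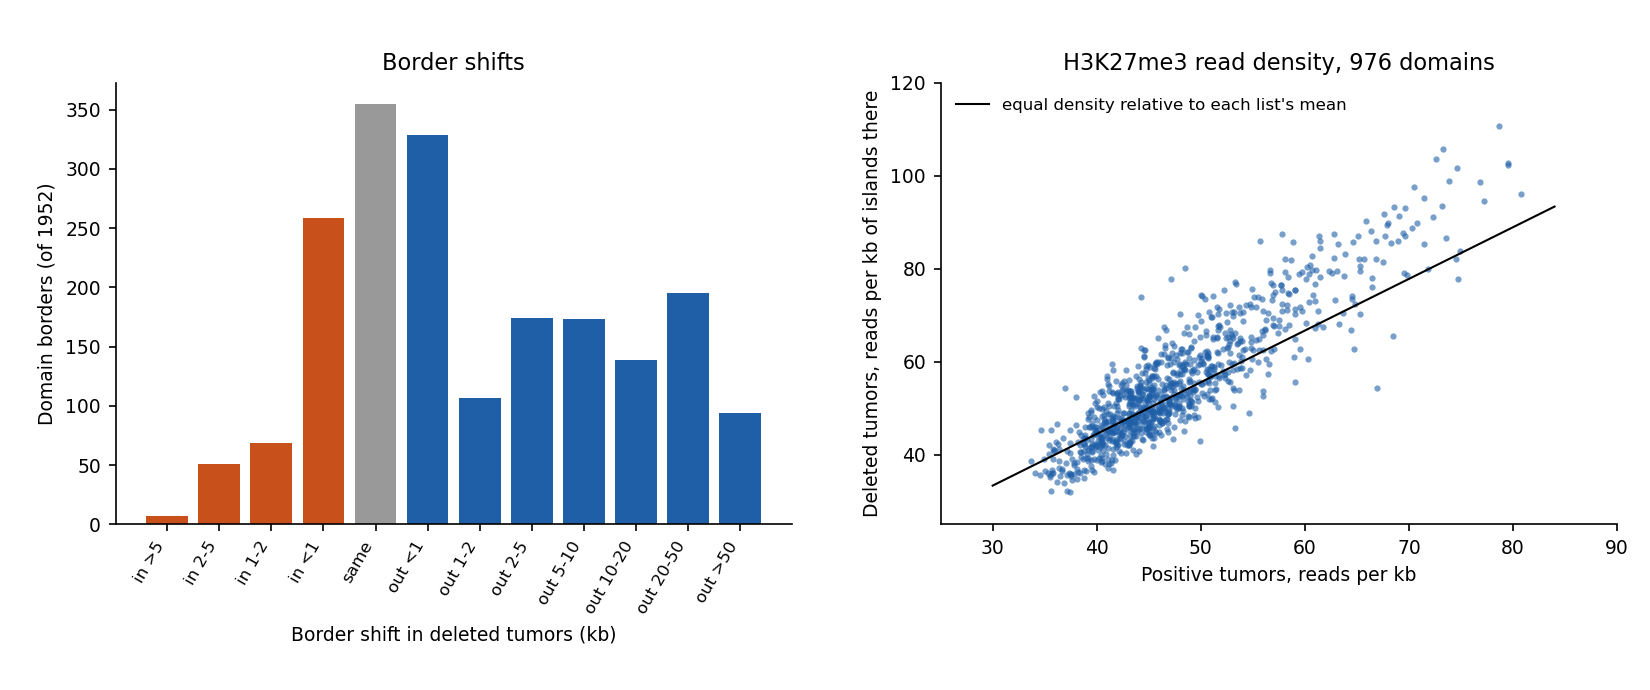
Left, bars count the 1952 domain borders by their shift in deleted tumors (kb, inward in orange, identical in grey, outward in blue), with 355 identical and 882 outward by 1 kb or more. Right, each point is 1 domain, with H3K27me3 reads per kb in positive tumors against reads per kb of the deleted-tumor islands over it, and the line marks equal density relative to each list's mean; points lie around the line at low density and mostly above it at high density.

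Read density in the domains was close between tumor types once each list was set against its own mean. The deleted-tumor islands over the domains carried a median of 52.6 reads per kb, against 45.9 in positive tumors, and the mean over all autosomal islands was 43.1 and 38.8. The density relative to the list's mean, deleted over positive, had a median of 1.03 (1.01 to 1.04). It was 0.987 for islands of 20 to 40 kb. For the mirrored choice the ratio, positive over deleted, was 0.940 (0.932 to 0.947), so relative density was higher in deleted tumors under both choices. The difference was small enough to turn with the list: with the upper 50% of deleted-tumor islands by read count, the median ratio of the domains was 0.973 (0.963 to 0.984). Densities of the domains in both lists had a Pearson r of 0.90 (Spearman rho 0.86) over 976 domains, a description of lists that share the genome's mappability and base composition.

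The ratio was higher in the densest domains. Its median was 0.986 in the lowest tercile of positive-tumor density, 1.01 in the middle and 1.08 (1.072 to 1.101) in the highest tercile. It was 1.07 (1.04 to 1.09) in domains of 80 kb or more. A ratio of at least 1.25 was seen in 36 domains (3.69%), against 5.42% of all autosomal positive islands with a partner and 3.52% of those of 20 to 40 kb. A ratio of at most 0.8 was seen in 6 domains (0.615%), against 12.1% and 3.21%. The highest ratios were 1.50 at chr13:40728001-40770800, 1.49 at chr19:59445201-59492400 and 1.49 at chr4:134626001-134681000. At each of these 3, the deleted-tumor island extended at least 59200 bp beyond one border. The lowest, 0.731, was at chr10:45171201-45212000, with 67.0 reads per kb in positive and 54.4 in deleted tumors, although 98.0% of it stayed covered. The domains chr18:40578601-40619200 and chr1:50967801-51010600 had ratios of 0.769 and 0.773.

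By chromosome, the share of domains in pieces ran from 40.0% on chromosome 2 to 71.0% on chromosome 12. Pooled cover per chromosome ran from 94.1% to 98.3%, the median border shift was above 0 bp on 17 of 19 chromosomes and the median density ratio above 1 on 15 of 19.

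Active marks were part of the domains in both tumor types. H3K4me1 islands touched 651 domains (66.7%) in positive tumors, against 18.4% of all autosomal positive H3K27me3 islands. H3K4me3 touched 495 (50.7%), against 10.4%, and H3K27ac 291 (29.8%), against 11.9%. Longer islands have more room for a mark, so the share of bases is the fairer measure. H3K27ac lay over 3.52% of domain bases, H3K4me1 over 7.34% and H3K4me3 over 3.63%. All autosomal positive H3K27me3 islands had 4.16%, 5.62% and 2.48%, and the whole autosomal span had 11.9%, 13.4% and 4.24%. By bases, the domains were thus richer in the 2 H3K4 marks and poorer in H3K27ac than H3K27me3 islands at large. In positive tumors 301 domains (30.8%) held none of the 3 active marks and 213 (21.8%) held all 3, and 279 domains held none in either tumor type.

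Each active mark was listed in fewer domains in deleted tumors. H3K27ac was present in 255 domains (26.1%, against 9.68% of all autosomal positive H3K27me3 islands), a difference of -3.69 points (-5.62 to -1.76). It was present in both tumor types in 226 domains, in positive tumors only in 65 and in deleted tumors only in 29 (6.66% and 2.97%, against 3.95% and 1.69% of all islands). H3K4me1 was present in 609 domains (62.4%, against 16.3%), a difference of -4.30 points (-6.23 to -2.38), with 583 in both, 68 in positive only and 26 in deleted only (6.97% and 2.66%, against 4.14% and 2.05%). H3K4me3 was present in 447 domains (45.8%, against 8.6%), a difference of -4.92 points (-6.33 to -3.50), with 445 in both, 50 in positive only and 2 in deleted only (5.12% and 0.205%, against 2.08% and 0.292%).

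These 3 marks also had shorter lists in deleted tumors. On the autosomes the deleted list covered 77.9% of the bases of the positive list for H3K27ac, 91.5% for H3K4me1 and 61.2% for H3K4me3, and reads in islands were 45.0 against 30.8 M, 35.3 against 29.4 M and 28.3 against 19.2 M. Inside the domains the deleted list covered 69.6%, 95.9% and 68.3% of the positive bases. In all autosomal positive H3K27me3 islands, bases under the mark went from 4.160% to 2.874%, 5.618% to 5.114% and 2.482% to 1.725%. In the domains they went from 3.517% to 2.448%, 7.336% to 7.036% and 3.629% to 2.477%. For H3K27ac and H3K4me3 the relative change was thus alike in both. When the positive list was cut by read density until it covered as much as the deleted one, the difference turned to +7.99 points for H3K27ac (5.89 to 10.1) and +14.5 points for H3K4me3 (12.3 to 16.8), and to -0.820 points (-2.79 to 1.15) for H3K4me1. With the upper 50% of each list by read count the differences were -2.77, -1.13 (-2.72 to 0.465) and -9.94 points for H3K27ac, H3K4me1 and H3K4me3. The part of depth in these differences was not tested.

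Covered bases per domain were compared next. H3K4me3 covered fewer bases in deleted tumors in 451 domains and more in 15, so that 96.8% (94.8 to 98.0%) of the domains that differed had fewer, against 91.3% of all autosomal positive H3K27me3 islands that differed. H3K27ac covered fewer in 228 and more in 79 (74.3%, 69.1 to 78.8%, against 73.2%). H3K4me1 covered fewer in 329 and more in 293 (52.9%, 49.0 to 56.8%, against 53.9%). For H3K27ac and H3K4me1 the domains were close to all H3K27me3 islands. For H3K4me3 more of the domains had fewer bases. By bases the domains kept 68.3% of the positive cover, against 61.2% on all autosomes. That does not set them apart from other H3K27me3 islands. H3K4me3 went from 3.629% to 2.477% of bases in the domains and from 2.482% to 1.725% in all autosomal positive H3K27me3 islands. In islands of 20 to 40 kb it went from 2.854% to 1.949%. The largest loss of H3K4me3 bases was in the domain at chr6:52073001-52280200, from 69000 to 48400 bp, while its H3K4me1 went from 93200 to 99200 bp and its H3K27ac from 52400 to 49200 bp. At chr11:96106601-96239000 H3K4me3 went from 51400 to 36800 bp. Both domains were single, fully covered H3K27me3 islands in deleted tumors, at density ratios of 1.30 and 1.28.

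The largest losses of H3K27ac bases were in domains that kept the mark. At chr5:76322601-76432200 it went from 39000 to 19200 bp, and at chr4:55652001-55700600 from 33200 to 14600 bp. The largest gain was at chr1:43205001-43245800, from 3800 to 11400 bp, where H3K4me1 also went from 2200 to 10200 bp and H3K27me3 still covered 99.5%. At chr1:74804201-74859400 H3K27ac was absent from the positive list and covered 7200 bp in deleted tumors, with H3K4me1 at 15200 and 22000 bp. The domain chr19:44669201-44869000 also had more of both marks, with H3K27ac from 600 to 5200 bp and H3K4me1 from 25200 to 32200 bp.

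H3K4me1 had its largest losses at chr11:68241601-68298200, from 47000 to 26200 bp, and at chr9:43073001-43146600, from 17600 to 2400 bp. H3K4me3 gains were small, from 4400 to 6000 bp at chr9:120181201-120274600 and from 2000 to 3400 bp at chr1:165974801-166020400. In all these domains H3K27me3 cover in deleted tumors stayed at 96.2% or more.

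**Figure D3:**
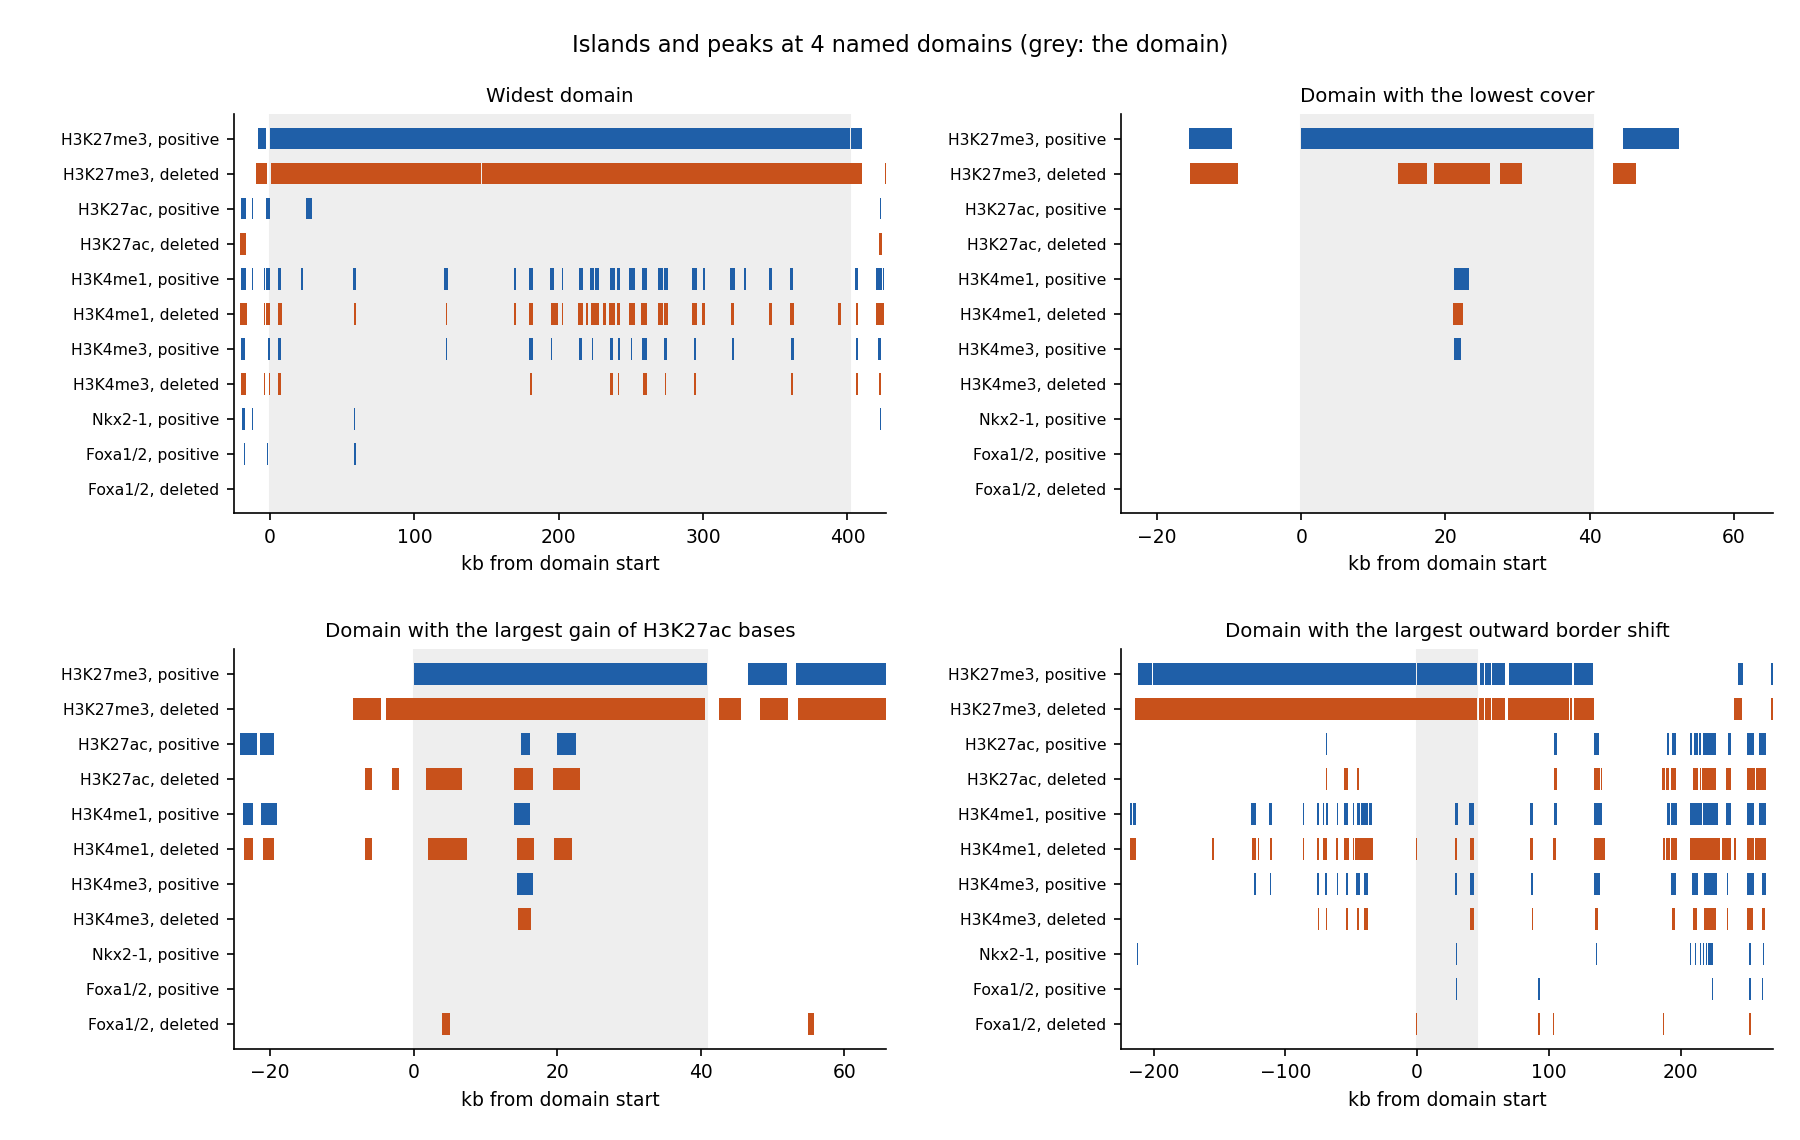
The 4 named domains, each drawn from its start (kb, to scale) with the islands and peaks of every list as bars, positive tumors in blue and deleted tumors in orange, and the domain in grey. The widest domain is covered to 99.7%, the domain with the lowest cover keeps 3 pieces in its middle, the lower left one shows H3K27ac bases going from 3800 to 11400 bp under 99.5% cover, and in the lower right one 1 deleted-tumor island runs over 3 positive islands.

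Active islands were then followed 1 by 1 from positive to deleted tumors. Of 977 positive-tumor H3K4me3 islands touching a domain, 20.0% (17.6 to 22.6%) had none, against 31.8% of all autosomal ones. For H3K4me1 it was 18.6% (16.8 to 20.6%) of 1576, against 22.8%. For H3K27ac it was 38.6% (35.1 to 42.3%) of 709, against 32.2%. The H3K27ac islands in domains were weak, with a median read count at percentile 38.4 of the list. Among islands in the weaker 50% of the list by read count, 56.8% (52.1 to 61.3%) in domains and 55.7% on all autosomes had no partner. In the stronger 50% it was 6.98% (4.46 to 10.8%) and 8.56%, so among islands of like read count the domains differed little from the autosomes. For H3K4me3 the share stayed lower within the weaker 50%, at 42.7% (38.2 to 47.4%) against 59.8%.

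In the other direction, 92 of 581 deleted-tumor H3K27ac islands touching a domain had no positive-tumor partner (15.8%, 13.1 to 19.03%), against 10.8% on all autosomes. For H3K4me1 it was 10.7% (9.16 to 12.4%) of 1417, against 8.4%, and for H3K4me3 1.53% (0.899 to 2.61%) of 847, against 3.26%. In the stronger 50% of the list, H3K27ac islands without a partner made up 6.28% (3.63 to 10.7%) of those in domains, 12 of 191, and 2.74% of all. In the weaker 50%, which held 80 of the 92, they made up 20.5% (16.8 to 24.8%) in domains and 18.8% of all.

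**Figure D4:**
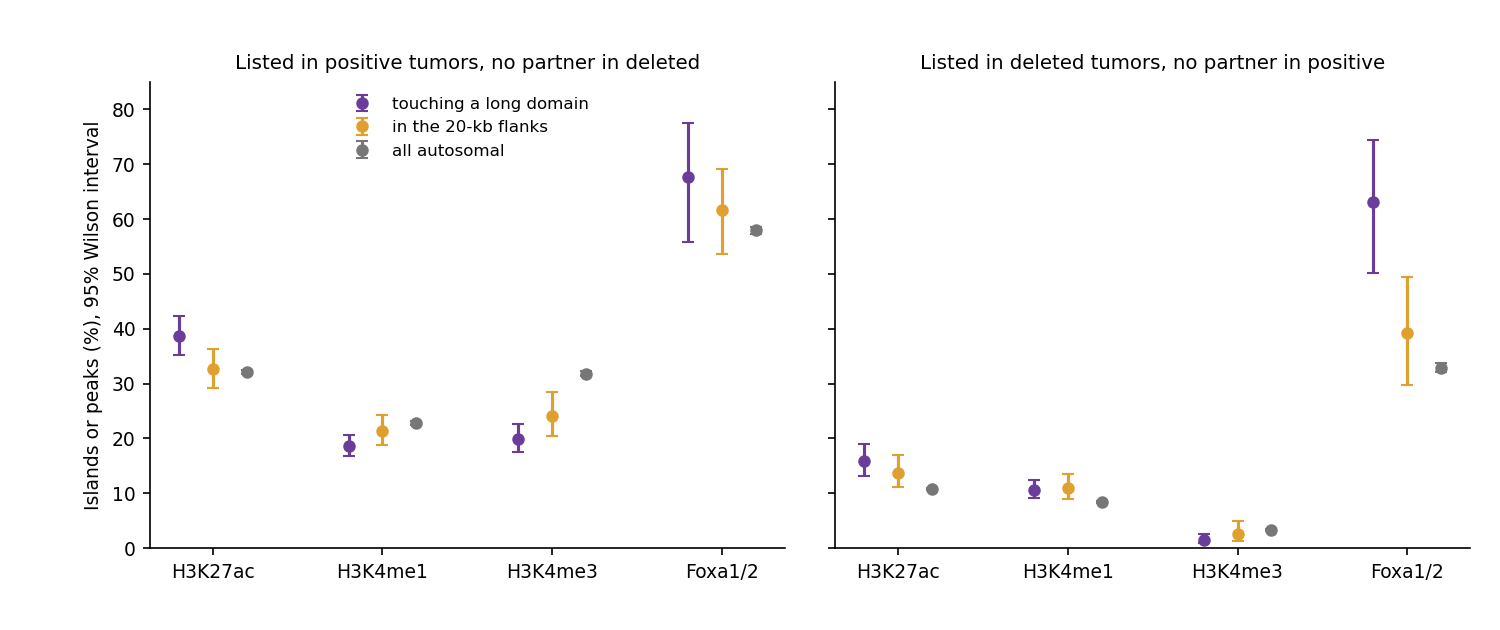
Points give the percent of islands or Foxa1/2 peaks of one tumor type with no partner in the other, touching a long domain (purple), in the 20-kb flanks (amber) or on all autosomes (grey), with 95% Wilson intervals. H3K4me3 islands of positive tumors stand at 20.0% in domains and 31.8% on all autosomes, and deleted-tumor Foxa1/2 peaks at 63.2% and 32.9%.

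Breaks were then counted by the active marks inside the domains. Of domains with H3K4me3 in both tumor types 44.9% were broken up, and their median density ratio was 1.07. Those with H3K4me3 in neither were broken up in 60.8%, with a ratio of 0.991. For H3K4me1 the shares were 46.0% and 64.2%, and for H3K27ac 47.8% and 54.7%. The groups also differed in density, with 50.0 reads per kb in positive tumors for domains with H3K4me3 in both and 43.5 for domains with it in neither, and the part of density was not tested. The 65 domains with H3K27ac in positive tumors only and the 29 with it in deleted tumors only had pooled covers of 97.6% and 98.3%.

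Transcription factor peaks were scarce in the domains. Nkx2-1 peaks touched 52 domains (5.33%, 4.09 to 6.92%), against 0.919% of all autosomal positive H3K27me3 islands. Foxa1/2 peaks of positive tumors touched 66 (6.76%, 5.35 to 8.51%), against 0.911%, and those of deleted tumors 53 (5.43%, 4.18 to 7.04%), against 1.06%. Counted by length, the domains held 0.808 Nkx2-1 summits per Mb, 0.925 Foxa1/2 summits of positive and 0.892 of deleted tumors. That was close to all autosomal H3K27me3 islands, with 0.758, 0.750 and 1.03, and far under the autosomal bases outside H3K27me3, with 14.8, 11.4 and 7.07 per Mb. A larger share of domains than of all islands held a peak, but per Mb the values were close.

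In the first kb outside the border, there were 32 Nkx2-1 summits and 32 positive-tumor Foxa1/2 summits in 1.88 Mb, or 17.1 per Mb each, against 10 deleted-tumor Foxa1/2 summits (5.33 per Mb). That kb is nearly free of H3K27me3 by construction, since the next positive island starts at least 800 bp away. In the 20-kb flanks as a whole, bases off positive H3K27me3 held 16.5 Nkx2-1, 11.6 positive-tumor and 6.46 deleted-tumor Foxa1/2 summits per Mb, and bases under it 1.063, 1.202 and 1.017. Off H3K27me3 the flanks were close to the autosomal values given above. Under it they were above the autosomal 0.758 for Nkx2-1 and 0.750 for positive-tumor Foxa1/2, on 23 and 26 summits, and near 1.03 for deleted tumors. Positive-tumor Foxa1/2 in the first kb, at 17.1 per Mb, stood above the 11.6 of flank bases off H3K27me3. Deleted-tumor Foxa1/2, at 5.33, stood below 6.46. Of flank bases, 66.0% lay under H3K27me3 islands in positive and 71.3% in deleted tumors.

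**Figure D5:**
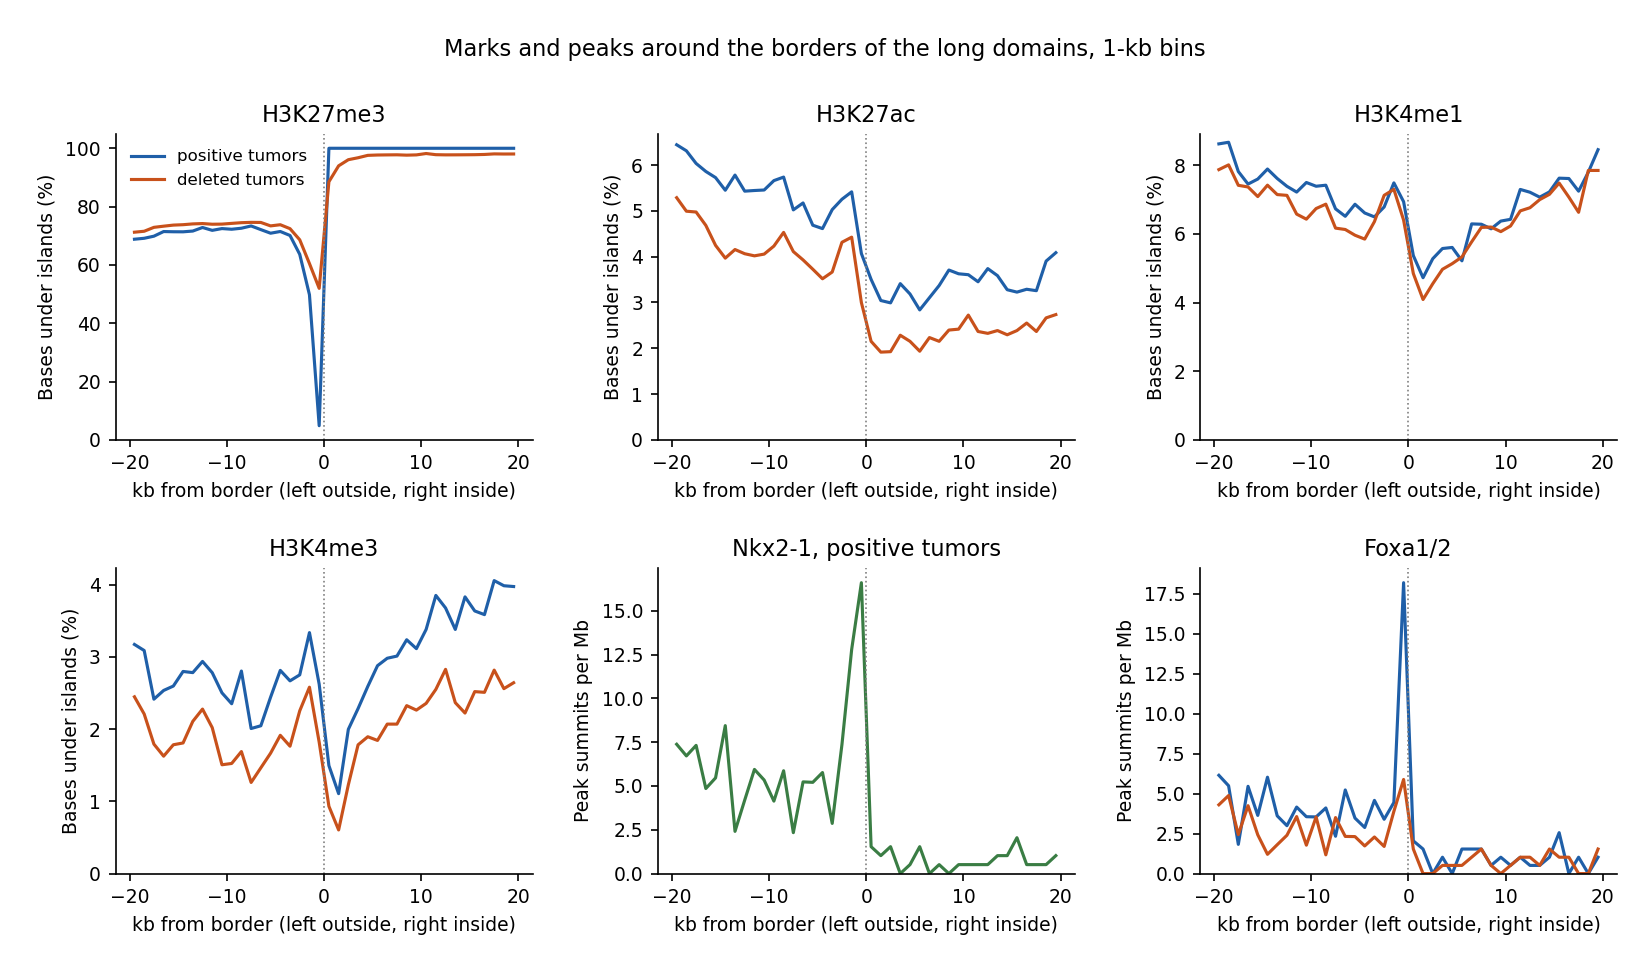
Lines give, in 1-kb bins up to 20 kb outside (left) and inside (right) the domain borders, the percent of bases under islands of each mark in positive (blue) and deleted (orange) tumors, and peak summits per Mb for Nkx2-1 and Foxa1/2. H3K27me3 drops at the border because the border was set by the positive list, and deleted tumors hold 65.2% cover in the first 5 kb outside against 51.3%. The first bin outside is nearly free of positive-tumor H3K27me3. As plotted per border, it holds 16.6 Nkx2-1, 18.2 positive-tumor Foxa1/2 and 5.89 deleted-tumor Foxa1/2 summits per Mb. All flank bases off H3K27me3 hold 16.5, 11.6 and 6.46.

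What lay next to a border was described within 2 kb of it. Where an H3K4me3 island of positive tumors only was present, 19 of 29 borders were at least 1 kb farther out in deleted tumors (65.5%, 47.4 to 80.1%). With H3K4me3 in both tumor types it was 43.1% (32.3 to 54.6%) of 72 borders, and with neither 45.0% (42.7 to 47.2%) of 1848. For H3K4me1 the shares were 64.3% (49.2 to 77.0%) of 42 borders with the mark in positive tumors only, 51.9% (44.8 to 58.9%) of 189 with it in both and 43.9% (41.6 to 46.3%) of 1703 with neither. With H3K27ac they were 51.1% (37.2 to 64.7%) of 47, 48.6% (39.2 to 58.0%) of 105 and 44.8% of 1781. With the mark in deleted tumors only, 1 of 3 borders lay that far out for H3K4me3 and 9 of 18 (50.0%, 29.0 to 71.0%) for H3K4me1. For H3K27ac in deleted tumors only it was 10 of 19 (52.6%, 31.7 to 72.7%). A Nkx2-1 peak was present at 64 borders, of which 50.0% (38.1 to 61.9%) lay at least 1 kb farther out in deleted tumors, against 44.8% of 1864 borders without any factor peak. Among these intervals, those that do not overlap are H3K4me1 in positive tumors only against neither and, barely, H3K4me3 in positive tumors only against neither. They treat borders as independent, so this is a description and not a test.

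The peaks inside domains sat on H3K4me1 more than on H3K27ac. Of 60 Nkx2-1 peaks touching a domain, 55 (91.7%) lay under a positive-tumor H3K4me1 island and 16 (26.7%) under H3K27ac, whereas 98.6% and 93.4% of all autosomal Nkx2-1 peaks did. Of 68 positive-tumor Foxa1/2 peaks, 82.4% lay under H3K4me1 and 22.1% under H3K27ac, against 97.4% and 90.3%. Of 57 deleted-tumor Foxa1/2 peaks, 77.2% and 40.4% did in deleted tumors, against 95.6% and 88.8%. At the same 57 sites, H3K4me1 was listed at 59.6% and H3K27ac at 22.8% in positive tumors.

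At the Nkx2-1 sites in domains, H3K4me1 was present at 55 of 60 in positive and 49 in deleted tumors, H3K27ac at 16 and 12, and H3K4me3 at 22 and 8. In positive tumors H3K4me3 was listed at 68.6% of all autosomal Nkx2-1 peaks. The matching autosomal shares in deleted tumors were not counted, and the whole H3K4me3 list there covered 61.2% of the positive bases. H3K27me3 stayed over most peaks in domains. Off deleted-tumor H3K27me3 islands lay 2 of the 60 Nkx2-1 peaks (3.33%) and 4 of the 68 positive-tumor Foxa1/2 peaks (5.88%). Of the 57 deleted-tumor Foxa1/2 peaks it was 3 (5.26%), while 97.6% of all domain bases lay under these islands. The 60 Nkx2-1 peaks touching a domain had a median score of 192, at percentile 56.9 of the list. Only 48 of them had the summit inside, and those with it outside scored from 75 to 1630, most of them high. The median of the 48 was not taken, so 192 does not describe summits inside domains. Foxa1/2 peaks touching a domain, with 55 of 68 and 53 of 57 summits inside, stood at percentiles 38.7 and 37.5. Positive-tumor Foxa1/2 peaks overlapped 28 of the 60 Nkx2-1 peaks (46.7%), and this overlap was not counted over all autosomal Nkx2-1 peaks. Most Nkx2-1 peaks lay in chr11:68100401-68221000, with 4, followed in genome order among those with 2 by chr2:147004201-147047200 and chr8:15042601-15089400. Those 3 domains were covered to between 98.3% and 99.3% in deleted tumors and held no Foxa1/2 peak there.

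Foxa1/2 peaks in the domains were mostly listed in 1 tumor type. Of the 68 positive-tumor peaks, 46 (67.6%, 55.8 to 77.6%) had no partner in deleted tumors, against 57.9% of all autosomal peaks. Of the 57 deleted-tumor peaks, 36 (63.2%, 50.2 to 74.5%) had no partner in positive tumors, against 32.9%. The latter share was also higher within the weaker 50% of the list by score, at 71.0% (53.4 to 83.9%) against 46.9%, and within the stronger 50%, at 53.8% (35.5 to 71.2%) against 18.9%. In the flanks 39.1% (29.8 to 49.3%) of 92 deleted-tumor peaks had no partner. Sex differed with tumor type for this antibody, as given above, and its part was not tested.

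The strongest deleted-only Foxa1/2 peak in a domain was at chr9:55137195-55138281, with a score of 699 and 12359 bp from the border of chr9:55125401-55174000. In that domain H3K27ac went from 19400 to 7000 bp and H3K4me1 from 13600 to 10600 bp. The next, at chr1:43208994-43210104 with a score of 456, lay in chr1:43205001-43245800, the domain with the largest gains of H3K27ac and H3K4me1. In chr2:33411801-33507600 there were 2 such peaks, with scores of 312 and 264, and H3K27ac went from 0 to 5600 bp while 100% of the domain stayed under H3K27me3. The peak at chr2:102391094-102392068 (score 269) lay in chr2:102346401-102395200 and the peak at chr5:148058552-148059148 (score 250) in chr5:148014401-148059200, which held none of the active marks. Of these 6 peaks all were under H3K27me3 in deleted tumors, 5 under H3K4me1 and 4 under H3K27ac. They are the highest of the 36 by score and do not stand for them, most of which lay off H3K27ac. Of all 57 deleted-tumor peaks touching a domain, 77.2% lay under H3K4me1 and 40.4% under H3K27ac.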

How the data were processed

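ChIP-seq was done on lung tumors of 31 samples, 9 of them inputs (not used here) and 22 in 11 groups by target and Nkx2-1 status. Reads were single-end and 40 to 50 nt long per the labels' protocols, and 1 input served both an Nkx2-1 library and histone libraries of positive tumors. Build mm9 and the tools SICER 1.1, MACS 1.4.2 and Bowtie are named in the submitters' processing notes, without roles. Per the names of the files, peaks have p of 1e-06, and H3K27me3 islands a gap of 600 bp and FDR of 0.01. The deposited islands hold the authors' read counts, unscaled, and the deposited peaks a score of at least 60 with a summit. Counts were used as density within a list or relative to the list's mean, scores as ranks only.

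Within a group the 2 files matched byte for byte and were used as 1 list, and nothing was tested between tumor types. Overlap means at least 1 bp. A piece is a deleted-tumor island touching the domain, a border the outer edge of such pieces, and the flank the 20 kb outside, other domains left out. A partner is an overlapping interval of the other tumor type. Shares have Wilson intervals, medians order-statistic intervals and differences paired Wald intervals (95%). Regions were named by rank: 5 widest, 5 lowest in cover, 3 with most pieces, 3 largest shifts each way, 3 highest and lowest ratios, 2 largest gains and losses per mark, 5 by deleted-only Foxa1/2 score and 3 by Nkx2-1 peaks. The members, lists and rules were chosen with earlier results of these data known. The view of what lies within 2 kb of borders and of summits by place was added after the data were seen. Measures were tested on simulated data and recovered for 976 of 976 regions. Python 3.11.15, numpy 2.4.6, scipy 1.17.1 and matplotlib 3.10.9 were used. No mm9 annotation was used here, so genes, gene lists and sequences are not analysed here.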

Additional observations from a re-analysis of the deposited data

How the results depend on the processing

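The lists are merged, so the spread between mice is unknown. Reads in autosomal islands were lower in deleted tumors for the active marks (45.0 against 30.8 M for H3K27ac) and higher for H3K27me3 (17.6 against 19.3 M). No paired analysis was possible because both files of a group hold the same merged list, and for the same reason no replicate could be left out. Domains kept to a width of 30 kb and 50 kb gave shares with at least 90% cover of 89.7% and 97.3% and density ratios of 1.01 and 1.04. Joining deleted-tumor islands across 2 kb and 5 kb gave 96.2% and 98.9% with at least 90% cover and 7.17% and 0.820% broken up. Median border shifts were then 15500 and 44800 bp, with the positive domains left unjoined, so that borders could only move outward. The upper 50% of deleted-tumor islands gave 87.2% with 90% cover, 48.0% broken up and a density ratio of 0.973. A limit of 80% cover gave 98.8%, and counting deleted-tumor islands within 5 kb, which likewise moves borders only outward, a shift of 11200 bp. The mirrored choice at 30 kb gave 81.3% with 90% cover, 68.9% broken up and a ratio of 0.958.

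Lists cut to equal covered length turned the difference in domains with the mark to 7.99 points for H3K27ac and 14.5 points for H3K4me3, and gave -0.820 points for H3K4me1; the cause was not tested. The upper 50% of each list gave -1.13 points for H3K4me1 and -9.94 points for H3K4me3. For Nkx2-1, positive-tumor and deleted-tumor Foxa1/2 peaks, the share of domains with a peak was 2.97%, 2.77% and 2.46% with the upper 50% of peaks by score. It was 4.05%, 5.01% and 4.10% at 30 kb, and 3.38% and 4.71% for the former 2 without the outer 5 kb. The other 27 of 58 alternatives for the main results stayed within the main interval, and 21 of 36 alternatives for single shares and flank densities moved outside it.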
